A study of Mus musculus with 6 samples.

Results

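Genes for voltage-gated and related ion channels were examined in whole mouse embryos with and without *Smchd1*, a gene whose product is needed for X inactivation. A gene was counted if its symbol begins with *Kcn* (potassium channels), *Scn* (sodium channels) or *Cacn* (calcium channels) and continues as subunit symbols do, and *Kcnq1*, which lies in an imprinted domain, was left out. This gave 130 of the 24207 entries of the expression table, namely 91 potassium, 13 sodium and 26 calcium channel genes. The RNA came from 6 male embryos dissected at embryonic day 9.5 (E9.5), of which 3 were *Smchd1*+/+ (wildtype) and 3 were *Smchd1*MommeD1/MommeD1 (mutant), homozygous for a nonsense allele from chemical mutagenesis. The labels give C57Bl6/J x FVB/n as the background strain of both groups, whereas the study's text names another strain. The table holds 1 value per genotype, in FPKM, a read level scaled by the authors to transcript length and library size, so that the level of one gene can be set beside that of another. Where 2 values of a gene are given, the mutant value comes first. Because the embryos of a genotype were pooled in that value, there is no spread between embryos and no test was possible. Every difference below compares 1 pooled value with 1 other.

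Voltage-gated channels are membrane pores that open when the voltage across the membrane changes. Sodium channels carry the upstroke of the action potential, calcium channels couple voltage to contraction, secretion and gene expression, and potassium channels bring the voltage back and set the resting level. Each channel is built from pore-forming alpha subunits, to which auxiliary subunits bind that alter gating or carry the pore to the membrane. At midgestation the first neurons and the beating heart are the best known sites of such channels.

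In the table *Smchd1* itself was at 2.12 FPKM in mutant against 34.0 FPKM in wildtype embryos. Of all entries, 12463 (51.5%) had a mean of at least 1 FPKM over both genotypes, and among these the median log2 ratio of mutant over wildtype was -0.008, with 0.1 FPKM added to each value here and throughout. In whole embryos, fewer cells of a type and less RNA per cell cannot be told apart.

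The channel genes lay low in this range. A mean of at least 1 FPKM was reached by 26 of the 130 (20.0%), made up of 14 of 91 potassium (15.4%), 2 of 13 sodium (15.4%) and 10 of 26 calcium channel genes (38.5%). A further 59 genes had a mean between 0.1 and 1 FPKM, and 45 were below 0.1 FPKM. *Kcnk15*, *Kcnk18*, *Kcna10* and *Kcnmb3* were listed at 0 in both genotypes. The genes just above 1 FPKM were *Kcnn1* (mean 1.01 FPKM), *Cacna1c* (1.09 FPKM) and *Kcnj5* (1.19 FPKM), and those just below it included *Kcnk2* (0.971 FPKM) and *Kcna6* (0.967 FPKM). The highest mean of any channel gene was 12.1 FPKM, for *Cacng7*, which placed it at percentile 75.2 of all entries.

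**Figure D1:**
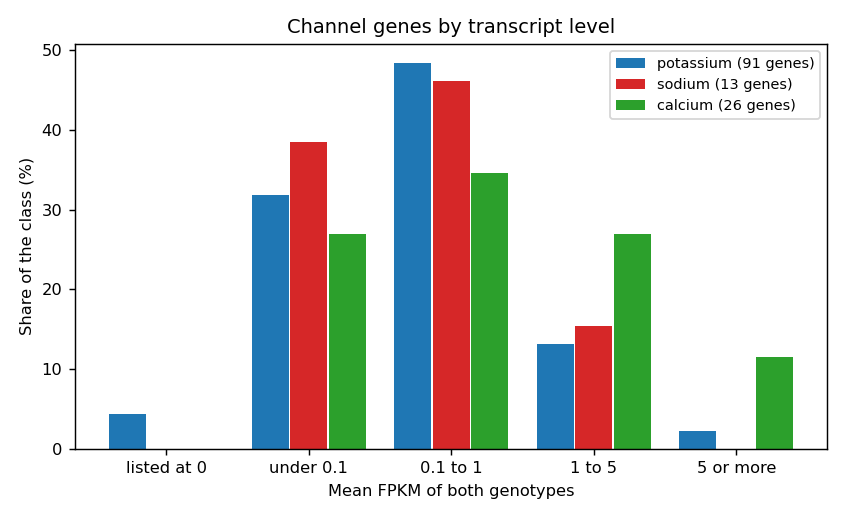
Share of each channel class (vertical axis, percent of its genes) by mean FPKM over both genotypes (horizontal axis, bins). Of the 26 calcium channel genes 3 reached 5 FPKM, against 2 of 91 potassium and 0 of 13 sodium channel genes.

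Among the 26 genes at 1 FPKM or more, 3 were at least 1.5-fold higher in mutant embryos, *Kcnn1*, *Kcnab2* and *Cacng4*, and 0 were at least 1.5-fold lower. Over all entries at that level, 3.51% were 1.5-fold higher and 1.47% were 1.5-fold lower, so that 3 genes of 26 (11.5%) stand beside a background of 3.51%. *Kcnn1* and *Kcnab2* reached a mean of 1 FPKM through the mutant value alone. With the requirement that both genotypes reach 1 FPKM, 24 genes were left. *Cacng4* was then the 1 gene at least 1.5-fold higher (4.17%) and 0 were lower, where 2.67% of the 12188 entries under the same requirement were higher and 1.24% lower. *Kcnn1* was also the 1 channel gene that was at least 2-fold higher, where 0.979% of all entries were, and 0 channel genes were 2-fold lower, where 0.514% were. In direction, 19 of the 26 genes (73.1%) were higher in mutant embryos by any amount and 7 lower, against 48.2% higher over all entries at that level. Their median log2 ratio was 0.15. By class it was 0.34 for the calcium, 0.30 for the sodium and 0.08 for the potassium channel genes, where the sodium value rests on 2 genes. The difference between classes was not tested, since genes of 1 pair of pooled values are not replicates.

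**Figure D2:**
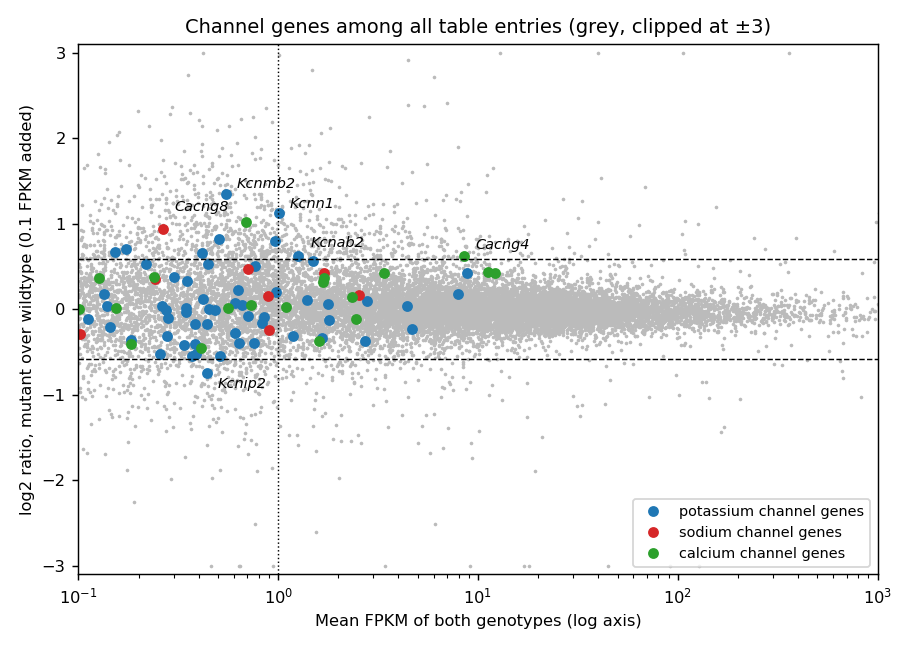
Log2 ratio of mutant over wildtype FPKM (vertical axis, 0.1 FPKM added) against mean FPKM (horizontal log axis, entries below 0.1 FPKM not shown) for channel genes, coloured by class, and all other entries in grey. Dashed lines mark 1.5-fold and the dotted line marks 1 FPKM. *Kcnn1*, *Kcnab2* and *Cacng4* lie above the upper line at 1 FPKM or more, and none of the channel genes at that level lies below the lower line.

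To show what lies before the start sites, the 250 bases upstream of the first RefSeq start (GRCm38.p6, the assembly that MM10 names) are given for *Kcnn1* and *Kcnab2*, past 1.5-fold, and for *Cacng7* and *Scn8a*, the most abundant calcium and sodium channel genes. *Cacng4* had no promoter entry. Capitals mark matches to CAGCTG (an E-box, a site type bound by neuronal and muscle bHLH factors), GGGCGG (GC box) and CCAAT on either strand. The stretches lie at chr8:70863259-70863508 on the minus strand (*Kcnn1*), chr4:152477550-152477799 on the minus strand (*Kcnab2*), chr7:3332575-3332824 on the plus strand (*Cacng7*) and chr15:100870395-100870644 on the plus strand (*Scn8a*).
Kcnn1: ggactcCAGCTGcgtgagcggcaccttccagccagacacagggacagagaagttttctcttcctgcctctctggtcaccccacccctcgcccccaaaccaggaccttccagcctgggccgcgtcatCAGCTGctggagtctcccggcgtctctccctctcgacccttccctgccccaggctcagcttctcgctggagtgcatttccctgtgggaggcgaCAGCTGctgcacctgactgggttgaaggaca
Kcnab2: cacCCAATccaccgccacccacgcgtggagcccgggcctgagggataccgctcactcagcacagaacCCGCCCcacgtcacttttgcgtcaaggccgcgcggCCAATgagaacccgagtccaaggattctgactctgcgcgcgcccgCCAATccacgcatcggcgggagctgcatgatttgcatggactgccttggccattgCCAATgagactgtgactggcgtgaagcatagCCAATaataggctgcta
Cacng7: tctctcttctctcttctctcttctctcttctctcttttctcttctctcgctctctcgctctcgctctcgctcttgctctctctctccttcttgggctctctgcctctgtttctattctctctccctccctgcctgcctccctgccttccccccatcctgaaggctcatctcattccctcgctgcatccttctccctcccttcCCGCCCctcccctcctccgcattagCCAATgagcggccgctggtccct
Scn8a: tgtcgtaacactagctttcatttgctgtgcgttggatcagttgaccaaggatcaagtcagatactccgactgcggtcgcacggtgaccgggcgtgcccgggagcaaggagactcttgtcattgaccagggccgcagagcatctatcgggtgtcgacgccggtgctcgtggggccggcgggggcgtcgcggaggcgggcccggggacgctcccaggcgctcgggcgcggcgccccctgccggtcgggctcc
The *Kcnn1* stretch holds 3 copies of CAGCTG, where 27 of 27025 genes (0.0999%) have at least 3 in the same window and 12.8% have at least 1. Its RefSeq start lies 468 bases inside the locus that the table gives. The *Kcnab2* stretch holds 5 CCAAT boxes, a number reached by 63 of the 27025 genes (0.233%), and 34.5% have at least 1. These counts were taken up after the sequences had been seen, and a match of letters is not a bound site. The *Scn8a* stretch has none of the motifs but 30 CpG dinucleotides.

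Promoter sequences were found for 96 of the 130 channel genes, and the first start listed was used for each. CpG dinucleotides in the 250 bases had a median of 10 for the 21 matched genes at 1 FPKM or more and of 8 for the 75 below. For all genes of the table these medians were 16.0 at 1 FPKM or more and 3 below. Channel genes at low level thus had more CpG dinucleotides than other genes at low level, as a description. A GC box was found in 12 of the 21 promoters (57.1%) and in 61.9% of promoters of all table genes at 1 FPKM. CAGCTG was found in 23 of the 96 channel promoters (24.0%), 3 of them among the 21 (14.3%), against 12.8% of all genes and 11.2% of table genes at 1 FPKM. CATATG, another E-box, was in 1 of the 96 and in 3.47% of all genes. A TATA box (TATAAA) was in 3 of the 96, with 0 among the 21, and in 13.0% of all genes and 5.85% of table genes at 1 FPKM.

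The genes with the highest and the second highest level, *Cacng7* and *Cacnb3*, were calcium channel genes. The summed level of the calcium channel genes was 55.8 FPKM in mutant against 43.2 FPKM in wildtype embryos, and they made up 42.9% and 38.8% of the summed level of all channel genes. The more numerous potassium channel genes had the larger sum, 65.9 and 61.4 FPKM (50.7% and 55.0%), and sodium channel genes were at 8.28 and 6.96 FPKM. The sum over the 130 genes was 130 FPKM in mutant against 112 FPKM in wildtype embryos, and calcium channel genes held 68.3% of the difference. *Cacng7*, *Cacnb3*, *Cacng4* and *Kcnh2*, the 4 genes with the highest means and also the largest differences, held 71.3% of it. It is a net difference, in which lower genes offset higher ones, so a large share for such genes is built in. The other 126 genes together were at 82.8 and 77.5 FPKM. The classes follow gene symbols. Within the calcium class, the gamma subunit genes summed to 25.7 FPKM in mutant against 17.9 FPKM in wildtype embryos. They were led by *Cacng7* and *Cacng4*, whose products belong to a family that regulates AMPA-type glutamate receptors.

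Gamma subunits come first by level. *Cacng7*, whose product belongs to the transmembrane proteins that regulate AMPA-type glutamate receptors, was at 13.9 FPKM in mutant against 10.3 FPKM in wildtype embryos, a log2 ratio of 0.42. *Cacng4*, of the same protein family, was at 10.3 and 6.70 FPKM, a log2 ratio of 0.62. Among all 8917 entries whose mean reached 5 FPKM, of which 1.5% were 1.5-fold higher and 0.897% lower, the ratio of *Cacng4* lay at percentile 98.7 and that of *Cacng7* at percentile 97.2. *Cacng8*, a further member of that family next to *Cacng7* on chromosome 7, was below 1 FPKM, at 0.963 FPKM in mutant against 0.423 FPKM in wildtype embryos, with a log2 ratio of 1.02. The other 5 gamma subunit genes had means of at most 0.183 FPKM.

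Beta subunits bind the pore from the cytoplasm and bring it to the membrane. *Cacnb3* was at 12.8 FPKM in mutant against 9.53 FPKM in wildtype embryos (log2 ratio 0.43), the second highest level of all channel genes. *Cacnb1*, best known from skeletal muscle, was at 1.87 and 1.47 FPKM (log2 ratio 0.32). In contrast, *Cacnb2*, the main beta subunit gene of the heart, was at 1.39 FPKM in mutant against 1.83 FPKM in wildtype embryos (log2 ratio -0.37). *Cacnb4* was at a mean of 0.155 FPKM, so that 3 of the 4 beta subunit genes reached 1 FPKM.

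Of the 10 pore-forming *Cacna1* genes, 3 reached 1 FPKM. *Cacna1g*, which encodes a T-type channel that opens at low voltage, was at 3.91 FPKM in mutant against 2.89 FPKM in wildtype embryos (log2 ratio 0.42). The other T-type gene at this level, *Cacna1h*, was at 1.91 and 1.46 FPKM (log2 ratio 0.36), whereas *Cacna1i* was at a mean of 0.0274 FPKM. *Cacna1c*, the L-type channel of heart and smooth muscle, was at 1.09 and 1.08 FPKM (log2 ratio 0.02). Both T-type genes were thus higher in mutant embryos by more than *Cacna1c*. The neuronal genes *Cacna1a* (0.744 and 0.715 FPKM) and *Cacna1b* (0.561 and 0.557 FPKM) differed little between genotypes. Among the *Cacna2d* genes, whose products sit outside the membrane and aid surface expression, *Cacna2d1* was at 2.46 and 2.23 FPKM and *Cacna2d2* at 2.35 and 2.56 FPKM, in opposite directions.

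**Figure D3:**
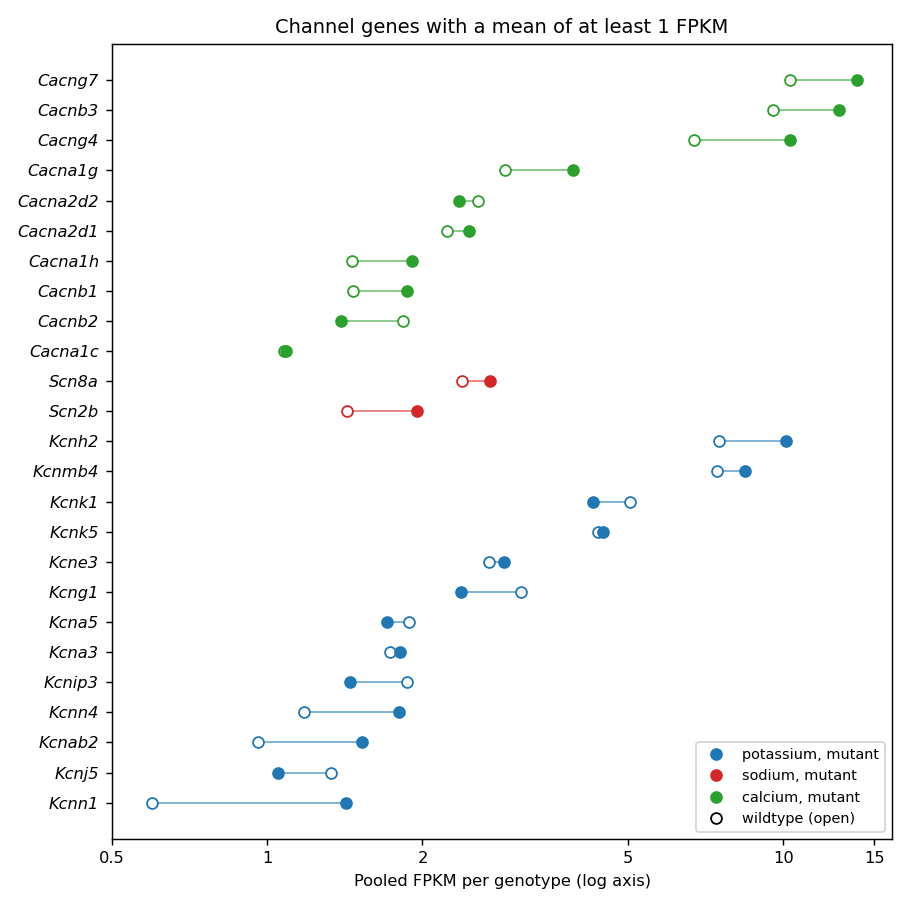
Pooled FPKM (horizontal log axis) in mutant (filled) and wildtype embryos (open) for 25 of the channel genes whose mean reached 1 FPKM, grouped by class and ordered by mean. The mutant value lies to the right for 18 genes and to the left for 7, and the widest gap is that of *Kcnn1*.

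For the sodium channels, *Scn8a* was the 1 alpha subunit gene of 9 at 1 FPKM. Its product is the channel of nodes of Ranvier, and it was at 2.70 FPKM in mutant against 2.39 FPKM in wildtype embryos (log2 ratio 0.17). *Scn3a* was at 0.283 and 0.200 FPKM, *Scn7a* had a mean of 0.102 FPKM, and *Scn1a*, *Scn4a*, *Scn9a*, *Scn10a* and *Scn11a* had means below 0.1 FPKM. *Scn2a1*, the gene of a further neuronal alpha subunit, was not counted because its symbol ends in a digit, and was at 0.750 and 0.829 FPKM.

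The beta subunits of sodium channels are single-span proteins that tune gating and adhere to other cells. *Scn2b* was at 1.95 FPKM in mutant against 1.43 FPKM in wildtype embryos (log2 ratio 0.42), at a locus that 3 entries share. Next to it on chromosome 9, *Scn4b* was at 0.836 and 0.578 FPKM (log2 ratio 0.47). *Scn3b* was at 0.380 and 0.151 FPKM (log2 ratio 0.94). The mutant value was thus the higher one for each of these beta subunit genes.

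Potassium channel genes were the most numerous and went in both directions, 9 higher and 5 lower at 1 FPKM or more. *Kcnh2*, which encodes the pore of the rapid delayed rectifier of the heart, led them at 10.1 FPKM in mutant against 7.52 FPKM in wildtype embryos (log2 ratio 0.42, percentile 97.1 of entries whose mean reached 5 FPKM). The other 7 *Kcnh* genes had means of at most 0.218 FPKM.

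Channels opened by intracellular calcium or sodium included the largest ratio among the genes with a mean of 1 FPKM or more. *Kcnn1*, a small-conductance calcium-activated channel gene of neurons, was at 1.42 FPKM in mutant against 0.600 FPKM in wildtype embryos, a log2 ratio of 1.12. *Kcnn4*, the intermediate-conductance channel known from red cells, was at 1.80 and 1.18 FPKM, a quotient of 1.52 that gave a log2 ratio of 0.56 once 0.1 FPKM was added. *Kcnmb4*, a beta subunit of the large-conductance calcium-activated channel in neurons, was at 8.43 and 7.44 FPKM (log2 ratio 0.18). The pore of that channel, *Kcnma1*, had a mean of 0.135 FPKM, far below the value listed for the auxiliary subunit in both genotypes. The locus of *Kcnmb4* is shared by 2 entries, however, and reads of an overlapping gene there cannot be told apart. *Kcnmb2*, a further beta subunit gene, was at 0.833 and 0.265 FPKM (log2 ratio 1.35).

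Auxiliary subunits of voltage-gated potassium channels were divided. *Kcnab2*, whose cytoplasmic product binds *Kcna* channels, was at 1.53 FPKM in mutant against 0.960 FPKM in wildtype embryos (log2 ratio 0.62). *Kcnip3*, a calcium-binding partner of *Kcnd* channels, was lower in mutant embryos, at 1.45 and 1.87 FPKM (log2 ratio -0.34). All 4 *Kcnip* genes had the lower value in mutant embryos, with log2 ratios of -0.40 for *Kcnip1*, -0.75 for *Kcnip2* and -0.01 for *Kcnip4*, each below 1 FPKM. *Kcne3*, a small single-span subunit, was at 2.88 and 2.69 FPKM.

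Pore-forming voltage-gated alpha subunits were near the lower limit. *Kcna5*, known from the atrium, was at 1.71 FPKM in mutant against 1.88 FPKM in wildtype embryos (log2 ratio -0.13). *Kcna3*, known from lymphocytes, was at 1.81 and 1.73 FPKM (log2 ratio 0.06). *Kcna6* was at 1.25 and 0.682 FPKM (log2 ratio 0.79), just below a mean of 1 FPKM. Of the modulatory subunits, which form channels only together with other alpha subunits, *Kcng1* alone reached 1 FPKM and was lower in mutant embryos, at 2.37 and 3.1 FPKM (log2 ratio -0.37).

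The 4 *Kcnq* genes counted had means between 0.278 and 0.607 FPKM, and none reached 1 FPKM. *Kcnq3*, whose product carries part of the M current of neurons, was at 0.236 FPKM in mutant against 0.319 FPKM in wildtype embryos (log2 ratio -0.32), and *Kcnq5* was at 0.624 and 0.591 FPKM.

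Leak and inwardly rectifying channels hold the resting voltage. *Kcnk1* was at 4.28 FPKM in mutant against 5.04 FPKM in wildtype embryos (log2 ratio -0.23) and *Kcnk5* at 4.47 and 4.37 FPKM (log2 ratio 0.03). Among the 15 *Kcnj* genes, *Kcnj5*, a subunit of the acetylcholine-gated channel of the atrium, was the 1 gene at 1 FPKM, at 1.05 and 1.33 FPKM (log2 ratio -0.31). *Kcnj2*, an inward rectifier of heart and skeletal muscle, was at 0.913 and 0.617 FPKM (log2 ratio 0.50). *Kcnk9*, which is imprinted in brain, was at 0.0643 and 0.0851 FPKM.

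**Figure D4:**
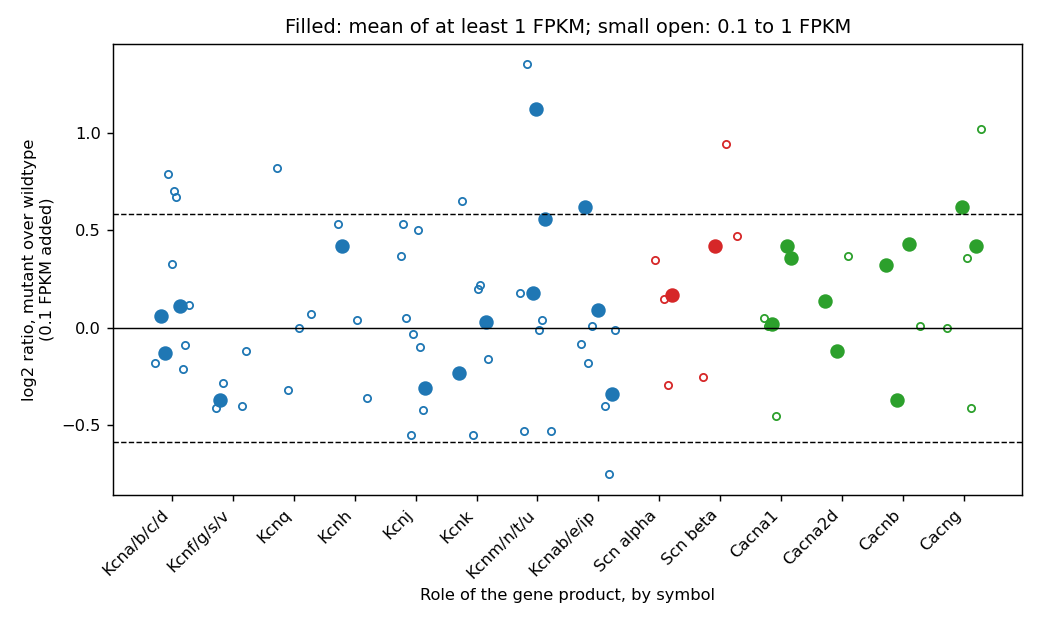
Log2 ratio of mutant over wildtype FPKM (vertical axis, 0.1 FPKM added) for channel genes whose mean reached 0.1 FPKM, by role (horizontal axis, symbol classes) and coloured by class. Filled points have a mean of at least 1 FPKM, small open points 0.1 to 1 FPKM, and dashed lines mark 1.5-fold, which *Kcnn1*, *Kcnab2* and *Cacng4* exceed among the filled points.

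Between 0.1 and 1 FPKM, the 59 channel genes had a median log2 ratio of 0.01, with 31 higher and 28 lower. Of these, 8 (13.6%) were at least 1.5-fold higher, where 17.3% of all 3737 entries of that level were, and 1 (1.69%) was at least 1.5-fold lower, where 7.97% were. The share of higher genes at this level was thus no greater than that of the table as a whole. The genes named here below 1 FPKM, such as *Kcnmb2*, *Cacng8* and *Scn3b*, were mostly chosen after their values had been seen.

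Channel genes often lie beside a close relative. Within 250 kb of each other were 37 of the 130 genes, in 15 groups, and in 8 of these groups 1 gene reached 1 FPKM and in 7 none did. No group had more than 1 gene at that level. So 8 of the 37 genes reached it, where 26 of all 130 channel genes (20.0%) did. This share counts single genes, so it cannot show whether neighbours reach the level together, which was not tested. The limit matters too, since *Kcna6*, in the group of *Kcna5*, had a mean of 0.967 FPKM. On chromosome 7 (MM10, chr7:3332975-3434940), *Cacng7* was at a mean of 12.1 FPKM, *Cacng8* at 0.693 FPKM and *Cacng6* at 0.183 FPKM. On chromosome 11 (chr11:107703218-107915055), *Cacng4* at 8.52 FPKM lay between *Cacng1* at 0.101 FPKM and *Cacng5* at 0.127 FPKM. The genes of a group also differed in direction, as *Kcna5* (-0.13), *Kcna1* (-0.18) and *Kcna6* (0.79) on chromosome 6 show by their log2 ratios. On the X chromosome were *Kcnd1*, at 0.821 and 0.878 FPKM, and *Cacna1f*, below 0.01 FPKM.

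Channel loci were long, with a median of 47821 bp against 18924 bp for all entries. At 1 FPKM or more, 6 of the 26 shared their locus with another entry (*Kcnmb4*, *Cacna2d2*, *Scn2b*, *Cacna1h*, *Cacnb2* and *Cacna1c*), and since the libraries did not keep strand, reads of overlapping genes there cannot be told apart.

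Genes whose products bind, move or resemble these channels were taken from a list of 41, of which 40 were found and 21 had a mean of at least 1 FPKM. Of these 21, 8 were higher and 13 lower in mutant embryos, with a median log2 ratio of -0.05. *Rem2*, a small GTPase that inhibits calcium channels, was the 1 gene of the 21 past 1.5-fold higher, where 3.51% of all entries at that level were, at 4.20 FPKM in mutant against 2.50 FPKM in wildtype embryos (log2 ratio 0.72). *Ank3*, which anchors sodium channels at the axon initial segment, was at 12.7 and 12.8 FPKM. *Rest*, a repressor of neuronal genes that include sodium channels, was at 8.14 and 8.94 FPKM (log2 ratio -0.13). *Hcn4*, the pacemaker channel of the heart, was at 2.47 and 2.70 FPKM, and *Dpp6*, a partner of *Kcnd* channels, at 1.21 and 0.802 FPKM.

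Markers of cell types that carry such channels also differed between the genotypes. All 11 neuron markers found of 12 were higher in mutant embryos, with a median log2 ratio of 1.14, a summed level of 225 FPKM in mutant against 108 FPKM in wildtype embryos, and none at 0. The summed level of the channel genes differed by 0.22 on the same log2 scale, without addition, against 1.06 for these markers. Of 5 neural progenitor markers, 4 were higher (median 0.11, summed 160 and 131 FPKM). Heart muscle markers were lower for 6 of 8 (median -0.16, summed 580 and 689 FPKM), beside lower values for *Cacnb2*, *Kcna5* and *Kcnj5* and a higher value for *Kcnh2*. The 5 erythroid markers were all higher (median 1.0, summed 8500 and 4220 FPKM), beside *Kcnn4* at a log2 ratio of 0.56. Skeletal muscle markers were higher for 4 of 5 (median 0.52, summed 33.2 and 32.2 FPKM), endothelial markers lower for 3 of 4 (median -0.11, summed 50.1 and 52.7 FPKM) and neural crest and glia markers lower for 4 of 4 (median -0.11, summed 17.6 and 18.7 FPKM). The part of these cell types in the channel values was not tested.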

How the data were processed

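RNA from 6 male E9.5 embryos, 3 per genotype by their labels, was sequenced by the authors as single-end reads of nondirectional libraries. Per the labels and the paper's methods, reads were mapped to MM10 with TopHat2 2.0.6 and Bowtie2 2.0.2, and genotypes were compared with Cufflinks and Cuffdiff 2.0.2. The annotation release is not given in the sources used here. The deposited values are FPKM, made by the authors, with 1 value per genotype. The table's short sample names were matched to genotypes through the paper's copy of the table. Its columns of fold changes, test statistics, p-values and q-values were not used. The authors' status column was used as a flag: all 26 channel genes at 1 FPKM were OK, and 80 of the 130 were NOTEST (low coverage).

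Here log2 ratios were computed for all entries with 0.1 FPKM added, without a test. Counts past a fold limit and channel medians were taken at a mean of at least 1 FPKM, except where another level is named. Adding 0.1 FPKM understates differences of low genes. Locus starts were raised by 1, which matched 8951 of 20102 RefSeq starts, against 571 without. No steps of whole reads were seen in 1180 low entries, so the depth is unknown and no counting interval is given. Named were channel genes at 1 FPKM with the 10 highest and 10 lowest ratios, the 10 highest levels, the most abundant of each role, the 3 on either side of 1 FPKM, and list genes. Some genes that this rule names are not reported here. Members and lists were chosen with earlier results of these data known. Ratios and counts were tested on simulated data. Python 3.11.15, numpy 2.4.6, pandas 2.3.3 and matplotlib 3.10.9 were used.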

Additional observations from a re-analysis of the deposited data

How the results depend on the processing

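None of the 26 channel genes at 1 FPKM changed the sign of its log2 ratio under the other pseudocounts, scalings and entry choices tried. The values depended most on the level required. With a mean of at least 0.1 FPKM, 85 genes counted, 11 of them 1.5-fold higher and 1 lower, with medians of 0.04 over all and 0.14 for calcium channel genes. Without a filter, 130 genes counted, 13 higher and 2 lower, with medians of 0.02 over all and 0.15 each for sodium and calcium channel genes. At 5 FPKM, 5 genes counted, 1 of them (*Cacng4*) 1.5-fold higher, with medians of 0.42 over all and 0.30 for potassium channel genes. Adding 1 FPKM left 1 gene 1.5-fold higher (*Kcnn1*, log2 ratio 0.59) and a calcium median of 0.23. The 2-fold limit left 1 gene (*Kcnn1*), and requiring 1 FPKM in both genotypes or in the wildtype value, both chosen after seeing the data, left 1 (*Cacng4*). With entries alone at their locus the sodium median was 0.17, for *Scn8a* alone. In the other 76 of 97 recomputed summary values, counts stayed within 1.5 times and medians within 0.1 of those reported. With equal total FPKM, or with 0.01 FPKM added, 4 genes were 1.5-fold higher. Counting *Scn2a1*, *Kcne1l* and *Kcnq1* as well, also chosen after seeing the data, gave an overall median of 0.17.

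No paired analysis was possible because the columns carry 1 value per genotype, and leaving out each embryo was not run for the same reason. The unknown depth limits the genes below 1 FPKM most.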

Other observations

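Other ion channel families, picked by symbol after the values above were known, were measured in the same table. Of 16 nicotinic acetylcholine receptor subunit genes, 4 had a mean of at least 1 FPKM and 2 of these were at least 2-fold higher in mutant embryos, where 0.979% of all entries at that level were. *Chrna4*, an alpha subunit of brain receptors, was at 5.97 FPKM in mutant against 2.81 FPKM in wildtype embryos (log2 ratio 1.06), and *Chrna3*, an alpha subunit of autonomic ganglia, at 2.48 and 1.18 FPKM (log2 ratio 1.01). *Chrnb4* was at 1.30 and 0.850 FPKM (log2 ratio 0.56), whereas *Chrna7* was at 3.41 and 3.53 FPKM (log2 ratio -0.05). The glycine receptor gene *Glra1* was at 1.5 and 0.717 FPKM (log2 ratio 0.97), and *Accn2*, of an acid-sensing channel, at 2.30 and 1.40 FPKM (log2 ratio 0.68). The other acid-sensing channel gene at 1 FPKM, *Accn1*, was at 1.53 and 1.54 FPKM (log2 ratio -0.01), and the other glycine receptor gene at that level, *Glrb*, at 2.47 and 2.02 FPKM (log2 ratio 0.27). *Chrnb4* and *Glra1* reached a mean of 1 FPKM through the mutant value alone.

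By contrast, of 22 transient receptor potential channel genes 4 reached 1 FPKM with log2 ratios between -0.20 and 0.19. Voltage-gated chloride channel genes did so in 5 of 8 cases, with log2 ratios between -0.24 and 0.11. Ionotropic glutamate receptor genes reached 1 FPKM in 3 of 16 cases, led by *Grik5* at 12.5 and 11.1 FPKM, and GABA-A receptor genes in 2 of 19. These are pooled values with no test.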
